A study of Mus musculus with 21 samples.

Results

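The genes described here are 6 ligands of the epidermal growth factor (EGF) family (Areg, Ereg, Hbegf, Tgfa, Btc and Egf) and 4 receptors (Egfr, Erbb2, Erbb3 and Met), chosen by symbol from the annotation of the arrays. All 10 were on the array, among 36990 gene names used, and all 10 were tested in every comparison. The study profiled mouse CLiPs (chemically induced liver progenitors, proliferating cells that the authors derived in culture from hepatocytes of female C57BL/6 mice) on single-colour Agilent expression arrays. The groups were late CLiPs (passages 11 to 12) after 8 days of hepatic induction with oncostatin M and dexamethasone, late CLiPs after 8 days without these agents, late CLiPs on day 0, P1 CLiPs (passage 1) after 8 days with or without the same agents, P1 CLiPs on day 0, and freshly isolated hepatocytes. Each of the 7 groups held 3 arrays, and the labels do not say whether these came from separate animals or cultures, so p-values reflect only how much these samples vary, which may be technical. The age of the mice, the culture medium, and whether EGF or HGF was added to it are not given in the sources used here.

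EGF family ligands are made as membrane-anchored precursors, released by metalloproteases, and bind ErbB receptors, which pair up and signal through the ERK and PI3K pathways. Egfr binds all 6 ligands directly, Erbb2 has no known ligand and serves as a partner, and Erbb3 binds neuregulins and has little kinase activity of its own. Met is the receptor of hepatocyte growth factor (HGF), and Egfr and Met are both known as drivers of hepatocyte proliferation in liver regeneration.

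The level of a gene is the log2 processed signal of its brightest probe minus the 75th percentile of the array, so that 0 is the level of a fairly bright probe. Levels of different genes come from different probes and were not set against each other. A probe was counted as measured on an array where the scanner file flags it as well above background. To be called as risen or fallen, a gene needed a change of 2-fold or more and an adjusted p under 0.05 in limma (Benjamini-Hochberg, over all genes tested). Late arrays were scanned on another scanner with another software version, so passage and scan cannot be told apart in levels set across these experiments, whereas a shift common to all late arrays cancels in the difference between changes. In these bulk samples, fewer cells of a type and less RNA per cell cannot be told apart.

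The signal at the 75th percentile was 881 to 1241 on late, 466 to 789 on P1 and 291 to 332 on fresh arrays. Between 46.1% and 60.5% of the probes on an array were measured. The labelled cell types were checked by marker genes, summed as linear signal relative to the 75th percentile. The sum of 7 hepatocyte markers was 428 to 607 in P1 day-0 CLiPs, against 3141 to 3483 in fresh hepatocytes, and all 7 fell. The 6 biliary and progenitor markers all rose, with sums of 438 to 465 in P1 day-0 CLiPs and 1.01 to 1.78 in fresh hepatocytes, where Krt19, Krt7, Epcam and Cd24a were well above background on no array. Of 6 endothelial markers 5 fell, with sums of 0.444 to 0.495 in P1 day-0 CLiPs and 10.7 to 17.8 in fresh hepatocytes, and of 6 macrophage markers on the array 5 fell, with sums of 3.43 to 3.73 in P1 day-0 CLiPs and 8.62 to 28.8 in fresh hepatocytes. Of 6 stellate and fibroblast markers, 5 of them tested, 3 rose (Pdgfrb, Reln and Col1a1), with sums of 10.8 to 21.5 in P1 day-0 CLiPs, where Lrat was well above background on no array, and 3.53 to 9.94 in fresh hepatocytes, where Pdgfrb and Col1a1 were well above background on none. Of 3 mesothelial markers Msln, the one tested, rose, with sums of 12.6 to 28.1 in P1 day-0 CLiPs, where Upk3b was well above background on no array, and 0.101 to 0.150 in fresh hepatocytes, where none of the 3 was well above background on any array. Of 3 leukocyte markers, 2 of them tested, 1 fell, with sums of 7.23 to 7.55 in P1 day-0 CLiPs and 11.1 to 12.7 in fresh hepatocytes. Cd79a was well above background on no array of either group. The part of these other cells in the differences between CLiPs and fresh hepatocytes was not tested.

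Passing from fresh hepatocytes to P1 CLiPs went with higher ligand RNA: in P1 day-0 CLiPs, 5 of the 6 ligands rose (Areg, Ereg, Hbegf, Tgfa and Btc), while among the receptors Erbb2 rose, Erbb3 fell and Egfr and Met did not pass. That is 6 of 10 genes higher and 1 lower, where 25.4% of all 20619 tested genes were called higher and 25.2% lower (50.6% in either direction). The median log2 change was 4.04 over the ligands, -0.06 over the receptors and -0.01 over all tested genes, and the first pair stays the same with Ereg and Erbb2 at their lower bounds, which lie above these medians. Quantile normalization shifted the median of all genes to 0.13 and normexp background correction to -0.17, both small beside the ligand median but not beside the receptor median. Normexp also made the changes of Areg, Ereg, Tgfa and Btc smaller, as given below for each gene. All 10 genes passed the filter on dim probes, which asked for 1 group with all its arrays well above background, but Areg, Ereg, Tgfa, Egf and Erbb2 met it only in CLiP groups. Of the 6 higher genes 4 are among these, so the count and the medians only describe the genes. Of the 5 measured on every fresh and P1 array, Hbegf and Btc rose, Erbb3 fell and Egfr and Met did not pass.

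Culture for 8 days without inducers lowered some ligands and no receptor of the 10. In P1 CLiPs, Areg, Ereg and Hbegf fell and none rose, where 11.1% of all genes were called (4.86% lower, 6.28% higher). In late CLiPs, Hbegf fell while Egf and Erbb3 rose, where 14.5% of all genes were called (6.36% lower, 8.19% higher).

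Induction with oncostatin M and dexamethasone, against 8 days without them, lowered Hbegf and Met at both passages. At P1, Hbegf, Tgfa and Met fell and Erbb3 rose, where 18.7% of all genes were called (9.02% lower, 9.69% higher). At late passage, Areg, Ereg, Hbegf and Met fell and none rose, where 6.00% of all 21313 tested genes were called (3.06% lower, 2.94% higher). The count of 4 was 2 without the late uninduced replicate 2. The response to induction itself differed between late and P1 CLiPs for Areg, Hbegf, Btc, Egfr and Erbb2, which is 5 of 10 genes, 2 with a higher and 3 with a lower late response, where 9.94% of 22353 tested genes were called (4.73% higher, 5.21% lower). Against fresh hepatocytes, P1 induced CLiPs had 5 of the 10 genes higher and 1 lower, where 20.3% of all genes were called higher and 18.8% lower (39.1% in either direction). Among the higher ones, Areg, Ereg, Tgfa and Erbb2 met the filter on dim probes only in CLiP groups, so this count only describes the genes. Of the 5 genes well above background on all arrays compared, 2 were called.

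**Figure D1:**
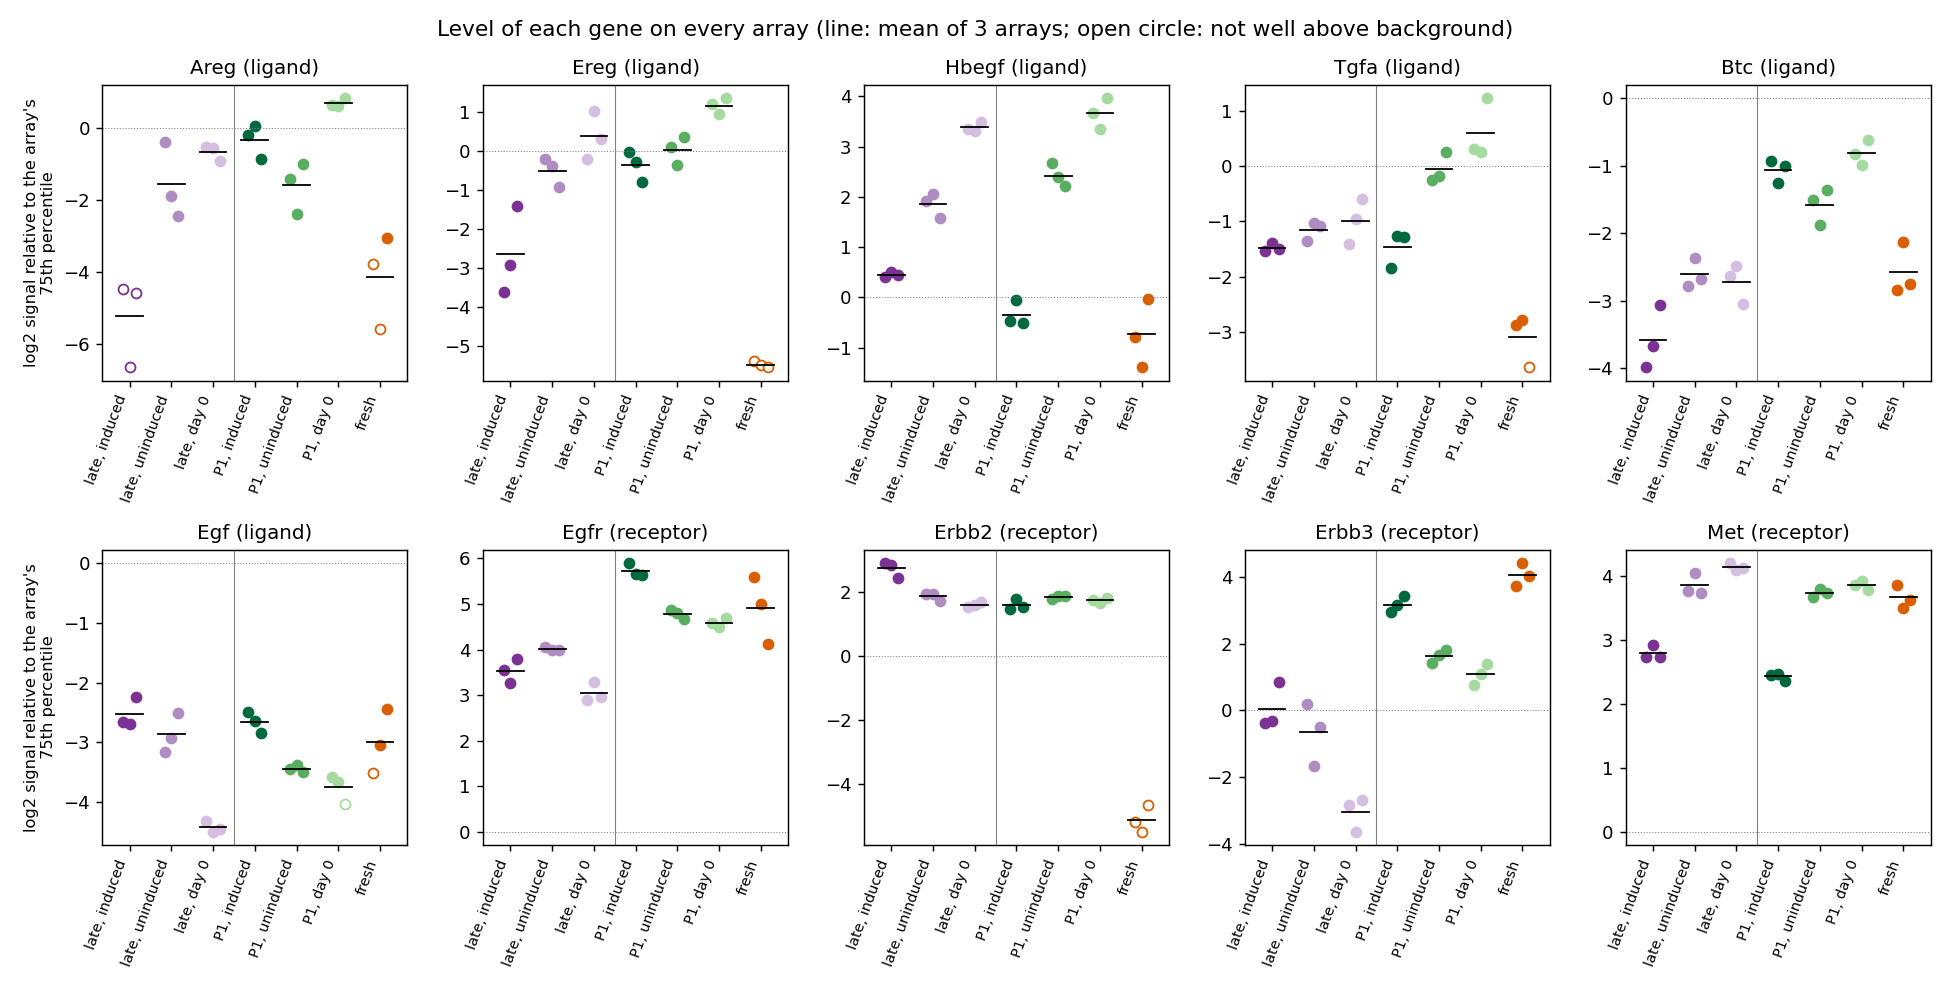
Level of each gene on every array, as log2 signal relative to the array's 75th percentile (vertical axis, each panel with its own range), in the 7 groups of 3 arrays (horizontal axis). Points are arrays, open circles are arrays where the probe was not well above background, and lines are group means; for Hbegf the P1 induced and fresh arrays lie at -1.39 to -0.04, below all other groups of either experiment.

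Areg (amphiregulin), measured at mm9 chr5:91570090-91570149 (+ strand), had levels of 0.65, 0.63 and 0.84 in P1 day-0 CLiPs, against -3.79, -5.60 and -3.05 in fresh hepatocytes. The groups did not overlap, and of the fresh arrays only replicate 3 was well above background. The log2 change was 4.85 ± 0.57 (SE, n = 3 arrays a group; adjusted p = 1.40e-05, limma), and it was 4.12 without the fresh replicate 2 and 2.90 under normexp background correction. After 8 days without inducers P1 levels were -1.41, -2.38 and -0.99, all below the day-0 arrays, and Areg fell by 2.30 on the log2 scale (adjusted p = 0.00985). With inducers P1 levels were -0.19, 0.08 and -0.85, all above the uninduced arrays, but the log2 change of 1.27 ± 0.57 (SE) did not pass (adjusted p = 0.0929, limma). It passed at a log2 change of 1.08 under normexp background correction (adjusted p = 0.00390, limma).

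In late CLiPs Areg was lower with induction. Levels were -4.47, -6.66 and -4.60 in late induced CLiPs, where no array was well above background, against -0.37, -1.89 and -2.43 in late uninduced CLiPs. The induced arrays lay below every uninduced array, although the uninduced arrays spread over a wide range. The fitted log2 change was -3.68 (adjusted p = 0.00823, limma), which includes signals at background level. On the processed signal Areg was at least 7.90-fold lower with induction. That bound puts each dim array at no less than the lowest signal well above background there. Under normexp the log2 change was -1.88, which does not reach the bound. On day 0 late levels were -0.53, -0.56 and -0.92, which the uninduced arrays overlapped (log2 change without inducers -0.90; adjusted p = 0.317, limma). The response to induction differed between late and P1 CLiPs by -4.95 ± 0.93 on the log2 scale (late minus P1, SE; adjusted p = 0.00127, limma). This value includes late induced signals at background level, and it was -2.97 under normexp. Within slides 4 (P1) and 6 (late) it was -5.71 (adjusted p = 0.0187, limma), and within slides 5 (P1) and 6 it was -4.60 and did not pass (adjusted p = 0.0742, limma).

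The promoter of Areg is shown because the response of Areg differed between the passages and because cyclic AMP signalling is a known regulator of its transcription. Promoters of 7 of the 10 genes (Areg, Tgfa, Btc, Egf, Egfr, Erbb2 and Met) were matched by symbol in a RefSeq table (GRCm38.p6), and the 250 bases before the start were searched on both strands. The sequence is chr5:91139349-91139598 on the + strand, with a cyclic AMP response element (TGACGTCA) in capitals, which begins 61 bases before the start; 1.55% of 32851 promoters hold one.
Areg promoter: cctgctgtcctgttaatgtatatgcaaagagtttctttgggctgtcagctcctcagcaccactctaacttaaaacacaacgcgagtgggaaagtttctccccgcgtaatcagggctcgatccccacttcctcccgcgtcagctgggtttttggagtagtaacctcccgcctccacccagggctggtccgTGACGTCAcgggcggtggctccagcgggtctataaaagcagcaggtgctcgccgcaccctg
The other motifs searched were an AP-1 site (TGANTCA), a STAT site (TTCNNNGAA) and the palindromic glucocorticoid response element, held by 6.75%, 7.02% and 0.00913% of promoters. None of the 8 promoters of these 7 genes (Egf has a pair) held the STAT or glucocorticoid letters in this window, and a match or its lack is a description of the letters only.

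Ereg (epiregulin), measured at mm9 chr5:91522553-91522612 (+ strand), had levels of 1.18, 0.93 and 1.34 in P1 day-0 CLiPs, against -5.39, -5.48 and -5.54 in fresh hepatocytes, where it was well above background on no array. The CLiP arrays all lay far above the fresh ones, with a fitted log2 change of 6.62 (adjusted p = 4.78e-10, limma). Ereg was at least 21.7-fold higher, a bound on the processed signal that the normexp log2 change of 3.57 does not reach. Levels after 8 days without inducers were 0.09, -0.36 and 0.35 at P1, all below day 0, and Ereg fell by 1.12 on the log2 scale (adjusted p = 0.00253, limma). This call was lost without the P1 uninduced replicate 2, where the log2 change was -0.93. With inducers P1 levels were -0.05, -0.28 and -0.79, which overlap the uninduced ones (log2 change -0.40 ± 0.22, SE; adjusted p = 0.158, limma).

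In late CLiPs Ereg levels were -3.61, -2.92 and -1.42 with inducers, against -0.21, -0.39 and -0.94 without. The induced arrays were all lower and were spread widely, and Ereg fell by 2.14 on the log2 scale (adjusted p = 0.0309, limma). The call was lost when any of the late uninduced replicates 1, 2 and 3 or the late induced replicates 1 and 2 was left out (log2 changes -2.35 to -1.66, adjusted p 0.0563 to 0.0915, limma), and held without the late induced replicate 3 at -2.75. The response differed from that at P1 by -1.74 ± 0.59 on the log2 scale (SE), just outside the threshold (adjusted p = 0.0512, limma). This difference passed with slide as a block (-2.32, adjusted p = 0.00254, limma) and under normexp at a smaller size (-1.24, adjusted p = 0.0437, limma). With the filter on all arrays compared it passed as well (adjusted p = 0.0416, limma). Within slides 4 and 6 it was -2.84. It also passed without the P1 induced replicate 3 (-1.95), the late uninduced replicate 3 (-1.95) or the late induced replicate 3 (-2.35). On day 0 late levels were -0.21, 1.01 and 0.30.

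Hbegf (heparin-binding EGF-like growth factor, which also binds the Erbb4 receptor), measured at mm9 chr18:36664738-36664797 (- strand), was well above background on all 21 arrays. Its levels were 3.68, 3.35 and 3.96 in P1 day-0 CLiPs, against -0.78, -1.39 and -0.04 in fresh hepatocytes, with no overlap (log2 change 4.40 ± 0.30, SE; adjusted p = 1.71e-07, limma). After 8 days without inducers they were 2.67, 2.39 and 2.21 at P1, below every day-0 array, and Hbegf fell by 1.24 on the log2 scale (adjusted p = 0.00902, limma). With inducers they were -0.46, -0.05 and -0.51, far below the uninduced arrays, and Hbegf fell by 2.77 ± 0.30 (SE) on the log2 scale, or 6.81-fold (adjusted p = 3.22e-05, limma). These induced P1 levels overlapped those of fresh hepatocytes, and the log2 change of 0.39 between them did not pass (95% interval -0.27 to 1.06; adjusted p = 0.261, limma).

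The same order held in late CLiPs, where Hbegf stood at 0.40, 0.51 and 0.44 with inducers and 1.91, 2.06 and 1.59 without, and at 3.36, 3.31 and 3.50 on day 0. No late group overlapped another. Hbegf fell by 1.54 on the log2 scale over 8 days without inducers (adjusted p = 5.79e-05, limma) and by a further 1.40 ± 0.12 (SE) with them (adjusted p = 0.000404, limma). The fall with induction was 1.37 ± 0.36 smaller at late passage than at P1 on the log2 scale (SE; adjusted p = 0.0129, limma). That difference was 1.10 within slides 5 and 6, where it did not pass (adjusted p = 0.258, limma), 1.60 within slides 4 and 6 (adjusted p = 0.0648, limma), and 0.64 for the mean of both probes, the second of which was well above background on 4 of the arrays (adjusted p = 0.158, limma).

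Tgfa (transforming growth factor alpha), measured at mm9 chr6:86159850-86159908 (+ strand), had levels of 0.30, 0.25 and 1.22 in P1 day-0 CLiPs, against -2.86, -2.77 and -3.63 in fresh hepatocytes, 2 of whose arrays were well above background. It rose by 3.68 ± 0.31 on the log2 scale (SE; adjusted p = 9.05e-07, limma), by 3.02 on its other probe and by 2.36 under normexp. At P1 its levels were -1.83, -1.27 and -1.28 with inducers, against -0.24, -0.19 and 0.25 without, with no overlap, and Tgfa fell by 1.40 ± 0.31 (SE) on the log2 scale (adjusted p = 0.00380, limma). Within slide 5 alone this was -1.53 and did not pass (adjusted p = 0.0611, limma).

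Late CLiPs showed little movement of Tgfa. Levels were -1.54, -1.39 and -1.50 with inducers, -1.35, -1.04 and -1.09 without, and -1.41, -0.95 and -0.60 on day 0. The induced arrays were all below the uninduced ones by a small margin (log2 change -0.32, 95% interval -0.76 to 0.12; adjusted p = 0.292, limma). The difference from the P1 response, 1.08 ± 0.39 (SE), did not pass (adjusted p = 0.0666, limma). It passed with slide as a block (1.31, adjusted p = 0.0111, limma) and with quantile normalization (1.16, adjusted p = 0.0450, limma). The mean of its probes passed at 1.07 (adjusted p = 0.0473, limma), and its other probe alone at 1.05 (adjusted p = 0.0431, limma). No fit that left out 1 array changed the call.

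Btc (betacellulin), measured at mm9 chr5:91787139-91787198 (- strand), had levels of -0.82, -0.99 and -0.62 in P1 day-0 CLiPs, against -2.83, -2.12 and -2.75 in fresh hepatocytes, with no overlap (log2 change 1.76 ± 0.20, SE; adjusted p = 1.32e-05, limma). The rise shrank to 0.85, under 2-fold, with normexp background correction. Its other probe was well above background on no array. At P1 Btc stood at -0.93, -1.26 and -1.0 with inducers, against -1.51, -1.88 and -1.36 without, and at late passage at -3.98, -3.67 and -3.06 with inducers, against -2.78, -2.36 and -2.68 without. Induced arrays thus all lay above the uninduced ones at P1 and all below them at late passage. Neither change reached 2-fold (0.52, adjusted p = 0.0601, and -0.96, adjusted p = 0.0328, both limma), although without the late induced replicate 3, the array on its own slide, Btc fell by 1.22 (adjusted p = 0.00904, limma). The difference between the responses, -1.49 ± 0.33 (SE), passed (adjusted p = 0.00496, limma) and was -0.89 under normexp. On day 0 late levels were -2.63, -2.47 and -3.04, which overlap the uninduced ones.

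Egf itself, measured at mm9 chr3:129380577-129380636 (- strand), was a low signal that went its own way among the ligands. It had levels of -3.58, -3.66 and -4.02 in P1 day-0 CLiPs, against -3.51, -3.04 and -2.43 in fresh hepatocytes, each group with 2 arrays well above background. The log2 change of -0.76 did not reach 2-fold (adjusted p = 0.0112, limma), but did at -1.02 without the fresh replicate 1 (adjusted p = 0.000830, limma). In late CLiPs its levels were -3.16, -2.92 and -2.51 after 8 days without inducers, against -4.32, -4.50 and -4.44 on day 0, with no overlap, and Egf rose by 1.56 ± 0.18 on the log2 scale (SE; adjusted p = 0.000326, limma). Under normexp that rise was 0.79, under 2-fold.

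The matching P1 levels of Egf were -3.44, -3.38 and -3.49 after 8 days without inducers, all slightly above day 0 (log2 change 0.32; adjusted p = 0.325, limma). The difference between late and P1 changes, 1.24 ± 0.31 (SE), passed (adjusted p = 0.0349, limma), as the only one of 10 genes, where 2.85% of all genes were called (1.74% higher, 1.11% lower). It was lost in 10 of 12 fits that left out 1 array (log2 1.06 to 1.29, adjusted p 0.0556 to 0.0965, limma), and held without the P1 day-0 replicate 3 and without the late uninduced replicate 1. With inducers Egf stood at -2.48, -2.65 and -2.84 at P1 and -2.66, -2.70 and -2.24 at late passage, and its log2 changes of 0.78 (adjusted p = 0.0190, limma) and 0.33 (adjusted p = 0.255, limma) did not reach 2-fold.

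**Figure D2:**
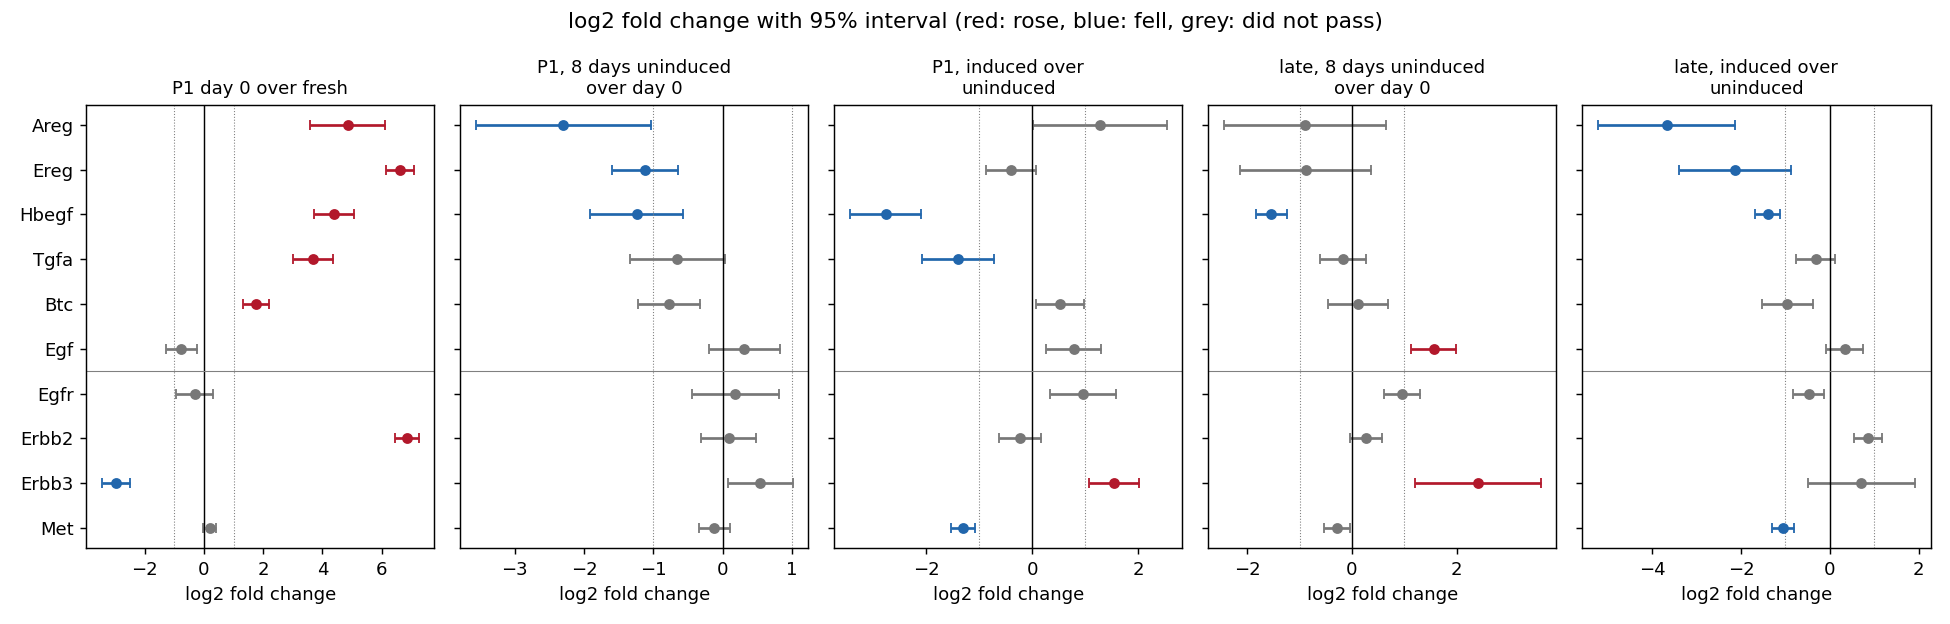
log2 fold change of each gene (horizontal axis, each panel with its own range) with its 95% interval from limma, in 5 comparisons of 3 arrays against 3. Red points rose, blue points fell and grey points did not pass; Hbegf is blue in all panels but that of P1 day 0 against fresh, where 5 of 6 ligands are red.

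Egfr, the receptor of all 6 ligands, was well above background on all 21 arrays. Its brightest probe, at mm9 chr11:16813815-16813874 (+ strand), gave 4.58, 4.51 and 4.69 in P1 day-0 CLiPs, against 5.59, 5.00 and 4.13 in fresh hepatocytes, whose arrays spread on both sides of the CLiP ones (log2 change -0.31, 95% interval -0.94 to 0.31; adjusted p = 0.326, limma). The probes of Egfr disagreed here. The probes at chr11:16783545-16783604 and chr11:16655638-16655697 fell by 1.80 (adjusted p = 2.77e-05, limma) and by 1.85 (adjusted p = 0.000906, limma) on the log2 scale, while a second probe of the same transcript as the brightest, at chr11:16812181-16812240, gave -0.40 (adjusted p = 0.293, limma). The mean of all 4 probes fell by 1.09 on the log2 scale (adjusted p = 0.00498, limma). Per the array annotation, the brightest probe and its partner target NM_207655, and the other probes target NM_007912 and AK049452.

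With inducers Egfr stood at 5.90, 5.67 and 5.63 at P1, against 4.86, 4.79 and 4.68 without, with no overlap, a log2 change of 0.95 ± 0.28 (SE; adjusted p = 0.0185, limma) just under 2-fold. It passed 2-fold without the P1 induced replicate 3 (adjusted p = 0.0394, limma), and the probe of NM_007912 rose by 1.15 (adjusted p = 0.00222, limma). The partner of the brightest probe gave 0.98 and the probe of AK049452 gave 0.63, both under 2-fold. In late CLiPs the induced arrays were lower, at 3.55, 3.26 and 3.79, against 4.05, 3.98 and 3.99 without inducers (log2 change -0.47; adjusted p = 0.0645, limma). The difference between the responses was -1.43 ± 0.35 (SE; adjusted p = 0.00835, limma), and on the other 3 probes -1.49, -1.49 and -1.21, the last of which, that of AK049452, did not pass (adjusted p = 0.0920, limma). It did not pass within slides 4 and 6 (-1.67, adjusted p = 0.0615, limma) or within slides 5 and 6 (-1.57, adjusted p = 0.109, limma). Over 8 days without inducers late Egfr went up relative to 2.90, 3.30 and 2.97 on day 0 by 0.95 ± 0.15 on the log2 scale (SE; adjusted p = 0.00141, limma), under 2-fold, and by 1.07 without the late day-0 replicate 2. The probe of NM_007912 gave 0.83 for this change, the partner of the brightest 0.60 and that of AK049452 0.30 (adjusted p = 0.292 for the last, limma).

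Erbb2 was read by a pair of neighbouring probes. The brighter, at mm9 chr11:98298394-98298453 (+ strand), gave 1.74, 1.66 and 1.80 in P1 day-0 CLiPs, against -5.18, -5.51 and -4.67 in fresh hepatocytes, where it was well above background on no array. Its fitted log2 change was 6.85 (adjusted p = 9.47e-11, limma), and on the processed signal it was at least 32.5-fold higher. The other, at chr11:98298103-98298162, was well above background on 2 of the 3 fresh arrays and rose by 2.65 on the log2 scale (adjusted p = 3.54e-07, limma). Both put the CLiP arrays above the fresh ones and they disagree on how far, and under normexp the brighter one gave 3.97. At P1 Erbb2 stood at 1.46, 1.76 and 1.53 with inducers, against 1.77, 1.85 and 1.85 without, the induced arrays all lower by a small margin (log2 change -0.24; adjusted p = 0.305, limma).

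In late CLiPs Erbb2 stood at 2.89, 2.85 and 2.44 with inducers, against 1.93, 1.94 and 1.71 without and 1.51, 1.59 and 1.69 on day 0. Every induced array lay above every uninduced one, with a log2 change of 0.86 ± 0.14 (SE; adjusted p = 0.00455, limma) on the brighter probe and 0.89 on the other. The change reached 1.01 without the late induced replicate 3. The difference from the P1 response was 1.10 ± 0.24 (SE; adjusted p = 0.00335, limma) and on the other probe 1.13. Within slides 5 and 6 it was 1.21 and did not pass (adjusted p = 0.0533, limma).

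Erbb3, measured at mm9 chr10:128004749-128004808 (- strand) and well above background on all 21 arrays, had levels of 0.77, 1.09 and 1.40 in P1 day-0 CLiPs, against 3.72, 4.41 and 4.04 in fresh hepatocytes. It fell by 2.97 ± 0.21 on the log2 scale (SE; adjusted p = 2.41e-07, limma), and by 3.17 on its other probe. That other probe was well above background on no P1 day-0 array, so its value includes signals at background level. At P1 it stood at 2.95, 3.15 and 3.42 with inducers, against 1.42, 1.66 and 1.80 without, and rose by 1.54 ± 0.21 on the log2 scale (SE; adjusted p = 0.000172, limma). The 4 P1 and fresh groups did not overlap, in the order fresh, induced, uninduced, day 0 from high to low. Induced P1 levels were still lower than fresh ones by a log2 difference of -0.89 (adjusted p = 0.00324, limma), under 2-fold, which became -1.05 without the fresh replicate 1 and -1.01 without the P1 induced replicate 3.

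In late CLiPs Erbb3 was at -0.38, -0.32 and 0.86 with inducers, 0.20, -1.66 and -0.51 without, and -2.83, -3.65 and -2.69 on day 0. It rose by 2.40 ± 0.52 on the log2 scale over 8 days without inducers (SE; adjusted p = 0.00651, limma). Induced and uninduced late arrays overlapped, and the log2 change of 0.71 did not pass (95% interval -0.49 to 1.91; adjusted p = 0.388, limma). The 8-day change without inducers was larger at late passage than at P1 by 1.86 ± 0.57 (SE), which did not pass (adjusted p = 0.0906, limma). It passed when replicate numbers were blocked (adjusted p = 0.0179, limma) and without the late uninduced replicate 2 (2.35, adjusted p = 0.0149, limma).

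The sum of the hepatocyte markers was 694 to 889 in P1 induced and 368 to 428 in P1 uninduced CLiPs, and 192 to 427 in late induced, 149 to 206 in late uninduced and 36.7 to 70.3 in late day-0 CLiPs. At P1 induction 6 of these 7 markers rose, and with late induction 0 of the 6 tested. Stellate and fibroblast markers summed to 44.7 to 89.7 in P1 induced and 6.77 to 34.3 in P1 uninduced CLiPs, with Lrat well above background on no array of either group, and to 0.165 to 0.528 in the late groups. Of the 5 tested, however, only 1 rose with P1 induction and 1 fell, so the sum does not stand for the set. Macrophage markers summed to 17.1 to 22.8 in P1 uninduced CLiPs, against 3.43 to 3.73 on day 0, with Clec4f, Cd5l and Adgre1 well above background on no array of either group. Of the 6 tested only 1 was called in that change, as higher, so this sum does not stand for its set either. Whether other cells had a part in the changes of the 10 genes within P1 or late cultures was not tested.

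Met, measured at mm9 chr6:17523765-17523824 (+ strand), was well above background on all 21 arrays. Its levels were 3.85, 3.92 and 3.78 in P1 day-0 CLiPs, against 3.85, 3.50 and 3.62 in fresh hepatocytes, which overlap (log2 change 0.19, 95% interval -0.03 to 0.42; adjusted p = 0.107, limma). With inducers Met was at 2.45, 2.47 and 2.36 at P1, against 3.67, 3.79 and 3.73 without, and fell by 1.31 ± 0.10 (SE) on the log2 scale (adjusted p = 3.05e-06, limma). In late CLiPs it was at 2.73, 2.92 and 2.73 with inducers, against 3.76, 4.05 and 3.73 without, and fell by 1.05 ± 0.11 (SE; adjusted p = 0.000726, limma). No induced array overlapped an uninduced one at either passage.

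The other probe of Met, at mm9 chr6:17442312-17442371, fell by 1.60 at P1 and by 1.30 at late passage on the log2 scale. Without the late uninduced replicate 2 the late fall was 0.95, under 2-fold. The responses at late passage and P1 differed by 0.25 on the log2 scale (95% interval -0.05 to 0.56; adjusted p = 0.261, limma). Induced P1 levels were also lower than fresh ones, by a log2 change of -1.23 ± 0.10 (SE; adjusted p = 1.23e-06, limma), which was -0.94, under 2-fold, with quantile normalization. On day 0 late levels were 4.19, 4.09 and 4.12.

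The promoter of Met is shown because Met fell with induction at both passages. Of the 8 promoters searched, only those of Areg and Met, the ones shown, held any of the motifs. The promoters of Btc, Egfr and Erbb2, whose responses also differed between the passages, held none. It lies at GRCm38.p6 chr6:17463707-17463956 on the + strand, with the letters of an AP-1 site, beginning 54 bases before the start, in capitals.
Met promoter: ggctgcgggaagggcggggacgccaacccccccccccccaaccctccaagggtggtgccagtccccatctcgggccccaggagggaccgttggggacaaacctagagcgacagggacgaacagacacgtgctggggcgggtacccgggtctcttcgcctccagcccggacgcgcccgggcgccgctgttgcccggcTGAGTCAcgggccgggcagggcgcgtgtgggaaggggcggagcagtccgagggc
No factor binding was measured here, and no other of the 8 promoters held this match.

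**Figure D3:**
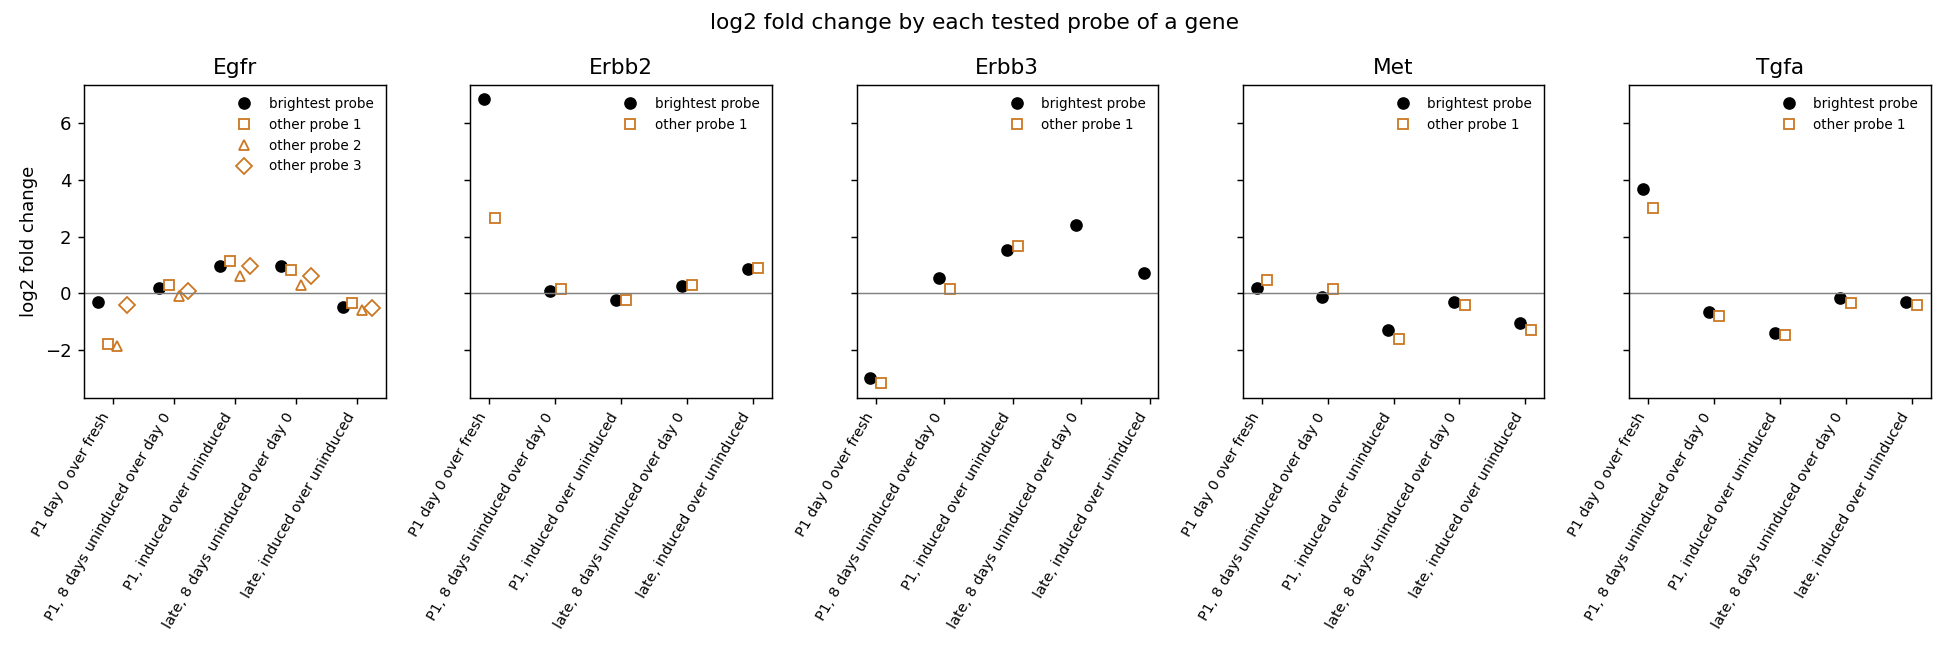
log2 fold change (vertical axis, shared) in 5 comparisons for every tested probe of the 5 genes with a second tested probe in the fresh and P1 arrays; filled points are the brightest probe used for the gene and open points the others. The widest spreads are for P1 day 0 against fresh, where Egfr spans -1.85 to -0.31 and the Erbb2 probes give 6.85 and 2.65. Egfr also spans 0.63 to 1.15 with P1 induction and 0.30 to 0.95 in late CLiPs over 8 days without inducers. The other Erbb3 probe was well above background on no day-0 or uninduced P1 array.

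**Figure D4:**
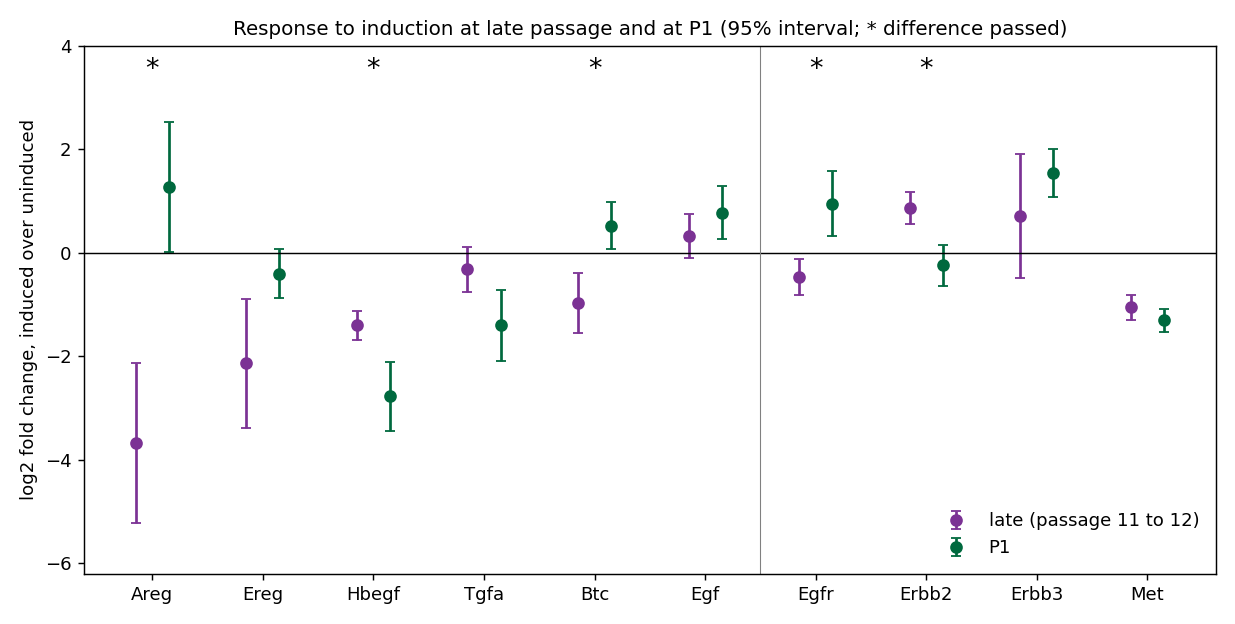
log2 fold change with induction (vertical axis, 95% interval) for each gene at late passage (purple, left of each pair) and at P1 (green), 3 arrays against 3 each. Stars mark the genes whose responses differed. The late Areg value of -3.68 rests on induced arrays at background level, beside 1.27 at P1. Its minimum of 7.90-fold holds for the processed signal only and was not reached under normexp. Met is at -1.05 and -1.31.

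Between P1 induced CLiPs and fresh hepatocytes, Areg, Ereg, Tgfa, Btc and Erbb2 were higher and Met lower. The log2 changes were 3.83 for Areg (adjusted p = 0.000121, limma), 1.63 for Tgfa (adjusted p = 0.000693, limma) and 1.51 for Btc (adjusted p = 6.17e-05, limma). Without the fresh replicate 2 Areg was at 3.10. Ereg was at least 7.54-fold higher and the brighter Erbb2 probe at least 29.3-fold, while the other Erbb2 probe rose by 2.56 on the log2 scale (adjusted p = 7.45e-07, limma). The other Tgfa probe stayed under 2-fold at 0.77 (adjusted p = 0.0195, limma). With normexp background correction Tgfa and Btc stayed under 2-fold, at 0.64 and 0.66, and Areg, Ereg and Erbb2 had log2 changes of 1.99, 2.17 and 3.78. Hbegf, Egf and Erbb3 did not reach 2-fold, at 0.39, 0.34 and -0.89. The probes of Egfr disagreed in direction. The brightest gave 0.83, under 2-fold, which became 1.17 without the fresh replicate 1 and 1.19 with quantile normalization, and its partner gave 0.65. The probe of AK049452 fell by 1.31 on the log2 scale (adjusted p = 0.00907, limma), that of NM_007912 was at -0.34, and the mean of all 4 was -0.04 (adjusted p = 0.903, limma).

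Levels on day 0 were also set side by side across the passages, where passage and scan cannot be told apart. Tgfa, Btc, Egfr and Erbb3 were lower in late than in P1 day-0 CLiPs, with log2 changes of -1.58, -1.90, -1.54 and -4.14, and none of the 10 was higher, where 9.11% of all genes were called lower and 4.33% higher (13.4% in either direction). Areg, Ereg, Hbegf, Egf, Erbb2 and Met did not pass, with log2 changes between -1.37 and 0.28. Under normexp Areg passed at -1.33 (adjusted p = 0.00478, limma). The Erbb3 change was as small as -2.97 under alternatives. The other Erbb3 probe, well above background on no day-0 array of either passage, gave -1.79. Hepatocyte markers were lower on the same late arrays, 6 of 7 of them called (median log2 change -2.66), and so were stellate and fibroblast markers, 4 of 5 tested (median -5.77), with Lrat, Pdgfrb, Col1a1 and Dcn well above background on no late day-0 array. Their part in these differences was not tested.

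The order of group means differed from gene to gene. Among the fresh and P1 arrays, Areg, Ereg, Hbegf, Tgfa, Btc and Met had their highest mean on day 0, Egf and Egfr with inducers, Erbb2 without inducers and Erbb3 in fresh hepatocytes. Neighbours in that order that overlapped were, for example, induced and fresh arrays for Hbegf, and the P1 day-0 arrays with both 8-day P1 groups for Erbb2. Over the 7 group means, which share the late scan, the Pearson correlation was 0.89 between Egfr and Erbb3, 0.889 between Ereg and Tgfa, 0.84 between Areg and Ereg and -0.804 between Hbegf and Egf, given as a description.

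Among 11690 other genes well above background on all arrays, those whose 7 group means were most like a gene's by Pearson correlation were Atxn7l1 (0.9973) and Cfdp1 (0.9937) for Hbegf, and Kng1 (0.9973) and Tspo2 (0.9967) for Erbb3. For Egfr they were Slc17a9 (0.9722) and 1700063D05Rik (0.971), for Met Pdcd2 (0.9662) and Sipa1l2 (0.9621), and for Btc 9430076C15Rik (0.9652) and Dusp16 (0.9404). With so many genes searched over 7 points, high values are found for any pattern.

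Other genes of the pathway were read from a list of 53, all on the array and 50 tested. Of these, 26 rose and 6 fell on day 0 of P1 relative to fresh hepatocytes. Over all genes, 25.4% were called higher and 25.2% lower. Nrg2, Plaur, Plau, St14, Spry2, Ier3 and Fosl1, given below as minimum folds, were well above background on no fresh array. They met the filter on dim probes only in CLiP groups. The counts against fresh hepatocytes, here and by role, thus only describe the genes. Among ligands and receptors of the same families, Nrg1 (neuregulin 1, a ligand of Erbb3) rose by 5.77 on the log2 scale. Nrg2 was called higher, but its minimum of 1.39-fold is under 2-fold. Mst1, the ligand of the Met relative Mst1r, fell by 2.48 on the log2 scale. Nrg4, Erbb4 and Mst1r did not pass, and Hgf (the ligand of Met), Nrg3 and Epgn were never well above background and so not tested.

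Ligand processing genes moved with them, with 8 of 11 higher and 2 lower in P1 day-0 CLiPs. Plaur and Plau, the urokinase receptor and urokinase, which can activate pro-HGF, were at least 449-fold and at least 100.2-fold higher, and St14 (matriptase) at least 57.9-fold. Such folds are bounds on the processed signal only. The HGF-activating proteases Hgfac and Hpn fell, with log2 changes of -3.51 and -2.65. Of 11 adaptor and relay genes 2 rose (Akt1 by 1.29 and Mapk3 by 1.09) and 1 fell (Pik3ca, log2 change -4.10), both fewer than those shares of all genes would give.

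Feedback inhibitors and ERK target genes of that list rose mostly as well. Of 13 feedback inhibitors 7 rose, among them Dusp5 and Dusp4, ERK phosphatases, by 5.78 and 5.56 on the log2 scale and Spry2 by at least 29.7-fold, while Errfi1, a direct inhibitor of Egfr, fell by 2.51. Of 9 ERK target genes 7 rose, with Ier3 at least 84.4-fold, Fosl1 at least 21.3-fold and Etv4 by 4.11 on the log2 scale, and Egr1 fell by 1.29. The median log2 change was 1.35 over the feedback inhibitors and 3.19 over the ERK targets, beside -0.01 over all tested genes. The lower bounds of Spry2, Ier3 and Fosl1 lie above these medians. Like the counts, the medians only describe the genes, since these 3 met the filter on dim probes only in CLiP groups.

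Over 8 days without inducers, 2 of the 50 rose and 10 fell at P1, and 2 rose and 13 fell at late passage. The shares over all genes were 6.28% higher and 4.86% lower at P1, and 8.19% and 6.36% at late passage. Of the ERK targets 4 of 9 fell at P1 and 5 of 9 at late passage and none rose, with log2 changes at P1 and late passage of -2.59 and -4.26 for Fosl1, -2.09 and -2.97 for Etv4, and -1.92 and -2.23 for Phlda1. Of the feedback inhibitors 4 of 13 fell at each passage, with Spry4 at a log2 change of -2.07 at P1 and at least 2.91-fold lower in late CLiPs, and Dusp5 at -1.67 and -3.39. Mst1r rose in both, at least 2.50-fold at P1 and at least 2.28-fold at late passage, and Hpn rose by 3.10 at late passage.

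With induction 7 rose and 17 fell at P1, and 3 rose and 15 fell at late passage. The shares over all genes were 9.69% higher and 9.02% lower at P1, and 2.94% and 3.06% at late passage. Errfi1, the Egfr inhibitor, rose at both, by 2.37 at P1 and by 1.63 at late passage, and Nrg4, a ligand of Erbb4, by 2.17 and 2.34. Of the feedback inhibitors 7 of 13 fell at P1, with log2 changes of -3.37 for Spry1, -2.41 for Dusp4 and -2.07 for Dusp6, and 4 of 13 fell at late passage, with -1.60 for Spry1, -3.19 for Dusp4 and -2.51 for Dusp6. Of the ERK targets 4 of 9 fell and 1 rose at P1, with a log2 change of -4.24 for Ccnd1 (cyclin D1) and 2.30 for Ier3. At late passage 7 of 9 fell, with -2.59 for Etv5, -2.28 for Phlda1 and -2.0 for Ccnd1.

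Urokinase and its receptor fell as well, with log2 changes of -7.51 for Plau and -3.0 for Plaur at P1, and -3.37 and -1.80 at late passage. Nrg1 had log2 changes of -1.23 at P1 and -1.69 at late passage. Nrg2 was called lower at both, but its signals do not establish a 2-fold fall. It was well above background on no induced array of either passage and on 1 uninduced array at P1. No fall or fold is therefore read for Nrg2 at P1, and at late passage its minimum was 1.09-fold. Mst1r and Mst1 rose by 2.02 and 1.56 at P1 and did not pass at late passage (log2 changes 0.38 and 0.43). None of the 11 adaptor and relay genes was called with induction at either passage. The responses differed between late and P1 CLiPs for 9 of the 50, where 9.94% of all genes were called, higher at late passage for Plau (4.14), Ccnd1 (2.24), Spint1 (1.97), Spry1 (1.77) and Plaur (1.20) and lower for Phlda1 (-2.04), Etv5 (-1.67), Mst1r (-1.64) and Ier3 (-1.43).

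**Figure D5:**
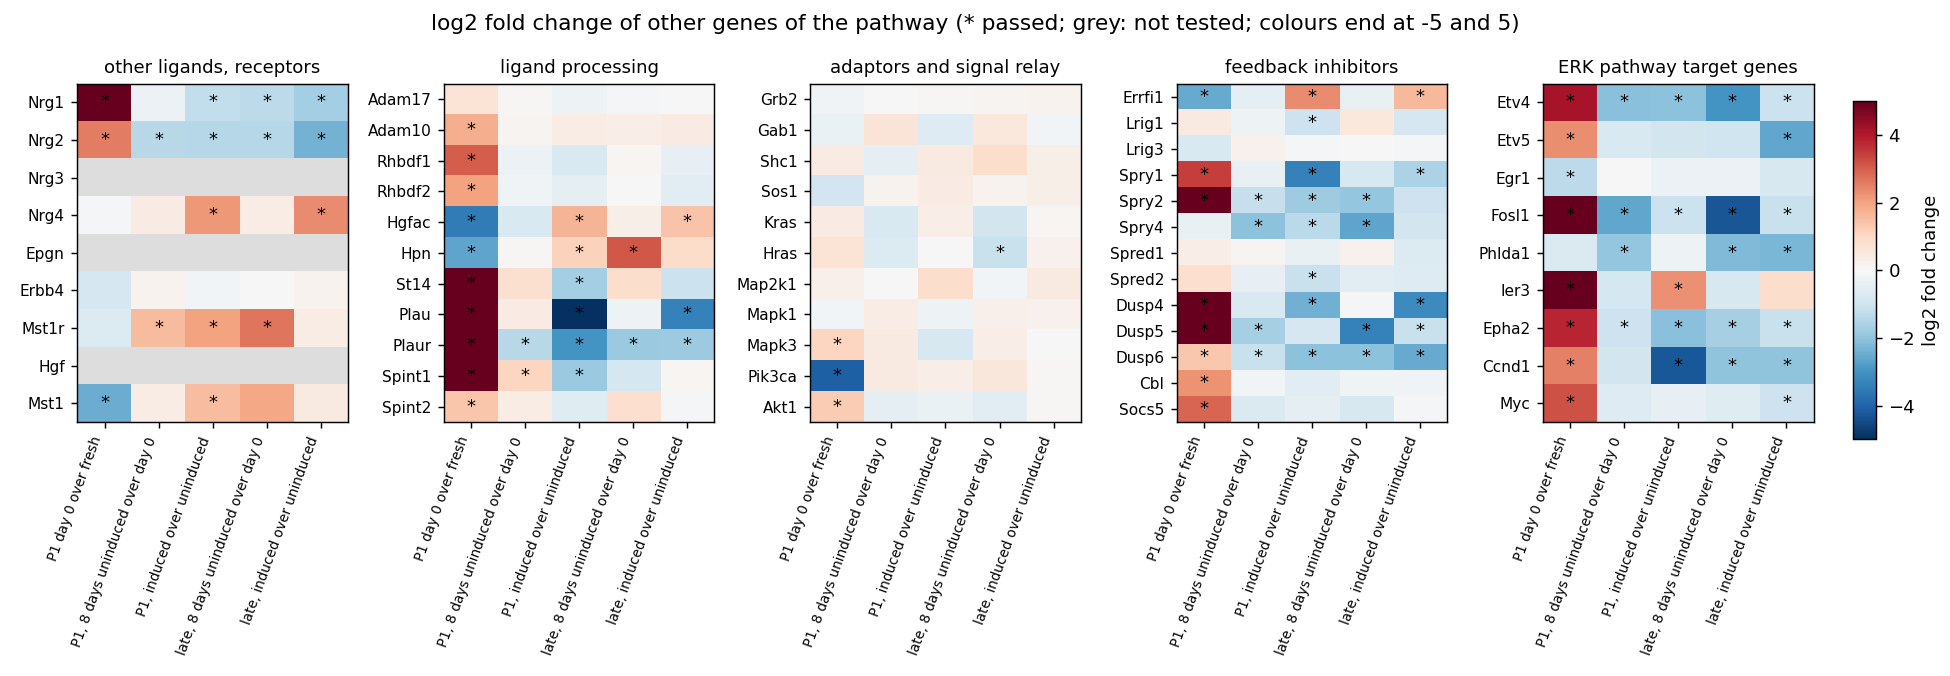
log2 fold change (colour, red higher and blue lower, ending at -5 and 5) of the 53 other pathway genes in 5 comparisons (columns), grouped by role. Stars mark genes that passed and grey rows were not tested; values at background level are drawn as fitted. In the first column the ligand processing genes, feedback inhibitors and ERK targets are mostly red, and the feedback inhibitors and ERK targets are mostly blue in the other columns.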

How the data were processed

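Total RNA was amplified, labelled with Cy3 and hybridised to single-colour Agilent arrays, per the labels' protocols. The 21 deposited scanner files give for each spot the processed signal, an intensity, background-subtracted and detrended within the array only, per the file headers (Agilent Feature Extraction 11.5.1.1 for fresh and P1 arrays, 10.7.3.1 for late arrays). Values in the authors' deposited tables are log2. Set against the scanner values, the one with fresh and P1 arrays (56605 probes, column medians -3.56 to -3.21) matched log2 signals shifted to the 75th percentile within 0.00183 after centring of each probe. The one with fresh and late arrays (40786 probes, column medians -0.0323 to 0.112) has in addition the median of every probe at 0.

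From the scanner files, control and outlier-flagged spots were left out, spots of a probe averaged, and the 75th percentile of log2 signals subtracted. A gene took its probe with the highest mean over the arrays, and 84 of 37074 names were left out for flagged spots. Names come from the files, with probe positions in mm9. Testing required a gene to be well above background on every array of some group in the fit. No spot was saturated. Where a probe was well above background on no array of a group, the fold is a minimum against the lowest signal well above background on each array. This minimum holds for the processed signal only. The normexp changes of Ereg and Erbb2 in P1 day-0 and P1 induced CLiPs against fresh hepatocytes were below it. So was that of Areg with late induction. Any p-value printed for such a gene is that of the fitted change, not of the minimum.

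The tests used limma 3.58.1 (lmFit, eBayes) in R 4.3.3, with a fit of 12 fresh and P1 arrays, one of 9 late arrays, and one of all 21 for differences between responses and late against P1 day 0. Benjamini-Hochberg adjustment ran over all genes tested in a fit. The fits were tested on simulated data. The 10 genes, the pathway and marker lists and the comparisons were chosen with earlier results of these data known. 1 gene of the pathway list is not reported here and enters no count of that list. From the pathway list, the text names the other ligands and receptors in full and at most the 3 called genes with the largest change per role, except differences between responses, where all 9 are named, and genes named for both passages or both directions, chosen after their values were seen. Replicates were grouped by title; 1 fresh array carries a P1 passage label and was kept as fresh. Per the labels, replicate 3 of the late groups was passage 11 and the others passage 12. Late arrays with the same replicate number deviated together (correlations 0.247 to 0.53), and P1 arrays did not throughout (-0.1151 to 0.4136). Replicate numbers were thus read as pairing the late arrays, but this pairing entered only the replicate-block alternative. The main fits, with their SEs and p-values, used group means without it. Alternatives were quantile normalization, normexp (offset 50), other filters, the mean of all probes, slide and replicate blocks, single slides, left-out replicates, one fit of all arrays and the authors' tables. Fresh arrays lie on 3 slides, P1 arrays on slides 4 and 5, late arrays on slide 6, except the late induced replicate 3 on slide 7. The number of arrays limits the precision. Slide correlations used statmod 1.5.0, and figures used matplotlib.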

Additional observations from a re-analysis of the deposited data

Results flagged for a closer look

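A difference between the late and the P1 response was tested by limma's test of the difference itself, adjusted over all tested genes, and found for 5 of the 10 genes for induction, where 9.94% of all genes were called, and for 1 for the change without inducers, where 2.85% were. For induction it was -4.95 on the log2 scale for Areg (adjusted p = 0.00127), a value that includes late induced signals at background level, with late induced arrays all below and P1 induced arrays all above their uninduced ones. For Btc it was -1.49 (adjusted p = 0.00496) and for Egfr -1.43 (adjusted p = 0.00835), each with the same opposite separation of arrays. For Hbegf it was 1.37 (adjusted p = 0.0129), with falls at both passages. For Erbb2 it was 1.10 (adjusted p = 0.00335), with late induced arrays all higher and P1 induced arrays all lower than their uninduced ones, at P1 by a small margin. For the 8-day change without inducers it was 1.24 for Egf (adjusted p = 0.0349), with late arrays all higher than day 0 and P1 arrays higher by a small margin, and this call was lost in 10 of 12 fits that left out 1 array.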

How the results depend on the processing

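No result turned its direction while called. Where probes had to be well above background on all arrays compared, the 7 calls among the 10 genes at P1 day 0 against fresh became 3, and the 6 calls for P1 induced against fresh became 2, because dim members were no longer tested. For the 8-day P1 change without inducers, 1 gene was called within slide 4 and 0 within slide 5, in place of 3, with fewer arrays. For the difference of the induction responses 0 were called within slides 5 and 6 in place of 5 by limma, with fewer arrays. For the difference of the changes without inducers, the single call became 0 with normexp, with no filter, with the filter on all arrays (Egf not tested), with the mean of all probes, within slides 4 and 6 and within slides 5 and 6, and 2 with the replicate block (Erbb3 added); the cause was not tested elsewhere. At an unadjusted p under 0.05 in limma, these settings with no call held 2 of the 10 genes within slide 5, 6 for the induction responses within slides 5 and 6, and 1 to 5 for the changes without inducers. The replicate block changed no other call. Leaving out 1 array gave 7 to 8 calls for P1 day 0 against fresh, 2 to 3 for the P1 and 3 to 4 for the late change without inducers, 4 to 5 for P1 and 2 to 6 for late induction, 6 to 8 for P1 induced against fresh, 5 to 6 and 0 to 1 for the differences of the responses and 4 for late against P1 day 0. Of 835 other values of single genes under alternatives, 779 kept their direction and side of the threshold, as did 626 of 660 with 1 array left out. Some alternatives, such as the replicate block and the authors' tables, hardly move a log2 change, so the first count only describes the settings tried. Over all genes, the strictest filter left 6688 calls in place of 10437 for P1 day 0 against fresh, 4893 in place of 8066 for P1 induced against fresh, and 1465 in place of 2221 and 369 in place of 637 for the differences of the responses with and without inducers. The last count was 385 and 174 within slides. The P1 change without inducers gave 498 calls in place of 2297 within slide 5. Late against P1 day 0 gave 7423 with no filter, 1959 with normexp and 1712 with the strictest filter, in place of 3004. Dim probes, mostly on fresh arrays, limit the size of the Areg, Ereg, Erbb2 and Tgfa changes.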
